A study of Homo sapiens with 3 samples.

Results

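Origin firing is the step of S phase in which a loaded but inactive MCM ring is turned into a working replicative helicase. In human cells the kinase CDC7 with its activating subunit DBF4 phosphorylates the ring, the scaffold proteins TICRR and TOPBP1 help to bring CDC45 to it, the RecQ family protein RECQL4 takes part in the same step, and the GINS complex completes the Cdc45-Mcm2-7-GINS helicase. Embryonic stem cells are known for a short cell cycle with a large share of it in S phase. The 10 genes described here are CDC45, GINS1, GINS2, GINS3, GINS4, TICRR, TOPBP1, RECQL4, CDC7 and DBF4. They were chosen by name, not by their values, and all 10 were found among the 58051 genes of the deposited counts. The study sequenced total RNA, after depletion of ribosomal RNA, from 3 replicates of H9, an established human embryonic stem cell line of wild-type genotype that was left untreated and grown in Essential 8 Flex medium on Vitronectin. It is 1 line under 1 condition, so no difference between conditions exists, and nothing in the labels says whether the replicates were separate cultures, so that their spread may be technical.

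Between 8655155 and 12024802 reads were counted on genes per library, which put between 222 and 1867 reads on each of the 10 genes in each replicate. Levels are given as TPM, read counts divided by the summed length of all annotated exons (the union of exons) and scaled to a common total in each library, and 1 read on one of these genes was worth between 0.0393 and 0.151 TPM. The label of the cells was checked against markers. All 6 pluripotency markers lay between 275 and 2576 TPM and all 4 markers of cycling cells between 138 and 802 TPM. Of the 16 markers of neural ectoderm, mesoderm, endoderm and trophoblast, the highest was FOXA2 at 7.54 TPM, and NEUROG2 and CDX2 were at 0. The 4 fibroblast markers summed to between 25.4 and 28.7 TPM per replicate, nearly all of it from COL1A2, whereas DCN was at 0.0985 TPM.

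Promoter stretches are shown first, because 5 of the genes have a match to the E2F motif near their start. E2F factors drive genes that are needed at the entry into S phase. RefSeq promoter windows (GRCh38.p14, from 250 bases before to 50 bases after a start) were at hand for 8 of the 10 genes, in 12 windows. The letters searched, on both strands, were TTTCCCGC, TTTCGCGC, TTTGCCGC and TTTGGCGC. They occurred in 5 of the 8 genes, against 3.99% of all 27305 genes with such a window, 8.01% of 4705 genes of the high expression class in H9, which is defined further on, and 15 of 38 genes of the replication lists used later (39.5%). The matches are printed within 30 bases of the gene's own strand, with the match in capitals.
GINS1: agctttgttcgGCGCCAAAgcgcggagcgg
GINS2: ctctcgccgtgGCGGGAAAacggcggccgc
GINS3: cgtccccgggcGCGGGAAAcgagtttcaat
TOPBP1: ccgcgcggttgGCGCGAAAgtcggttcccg
CDC7, first match: gtgcagttcctTTTCCCGCcccccttcgga
CDC7, second match: tccgacctgcgGCGGGAAAgtcgcgcgcct
These stretches lie at chr20:25407667-25407696 on the plus strand (GINS1), chr16:85688967-85688996 on the minus strand (GINS2), chr16:58392455-58392484 on the plus strand (GINS3), chr3:133661930-133661959 on the minus strand (TOPBP1), and chr1:91501033-91501062 and chr1:91501067-91501096 on the plus strand (CDC7). The match began 31 bases before the start in GINS2, 7 bases before it in TOPBP1 and 5 bases before it in GINS3. In GINS1 it began 5 bases after the start. The matches of CDC7 lay 68 and 34 bases before the later of its 2 RefSeq starts. GENCODE also annotates starts further upstream. The RefSeq start used here lay 97391 bases downstream of the outermost GENCODE start in GINS3, 16665 bases in GINS1, 1119 bases in GINS2 and 439 bases in TOPBP1, and the later start of CDC7 lay 261 bases downstream. No match was found in the windows of CDC45, TICRR and DBF4, which says only that these letters are not in those windows. The GC box GGGCGG was present in all 8 genes, against 79.5% of genes of the high class, and the box CCAAT in 4 of 8, against 45.4%. The CHR element is known from genes of late cell cycle. Its letters TTTGAA or TTCGAA occurred in DBF4 alone of the 8, against 15.0% of genes of the high class. The NRF1 motif occurred in none, against 3.15% of genes of the high class. Over all genes with a window the shares were 48.3% (GC box), 39.7% (CCAAT), 19.5% (CHR) and 1.52% (NRF1). Over the genes of the replication lists they were 86.8%, 68.4%, 10.5% and 5.26% in the same order. A match is a description of the sequence, and binding was not measured in these data.

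The subunits of the helicase came at unequal levels. CDC45 (ENSG00000093009, chromosome 22, 19479457 to 19520612), which bridges the MCM ring and GINS, had 39.9, 46.4 and 44.5 TPM in replicates 1, 2 and 3, a mean of 43.6 ± 3.35 TPM (SD, n = 3). GINS1 (ENSG00000101003, chromosome 20, 25391008 to 25452700) had 73.9, 77.0 and 73.7 TPM, a mean of 74.8 ± 1.83 TPM (SD, n = 3). GINS2 (ENSG00000131153, chromosome 16, 85676198 to 85690073) had 77.9, 79.7 and 67.0 TPM, a mean of 74.9 ± 6.84 TPM (SD, n = 3). The ranges of GINS1 and GINS2 overlapped on this scale, with replicate 3 the lowest library for each of them. GINS4 (ENSG00000147536, chromosome 8, 41529218 to 41545030) had 63.4, 65.2 and 59.3 TPM, a mean of 62.6 ± 3.03 TPM (SD, n = 3). GINS3 (ENSG00000181938, chromosome 16, 58295080 to 58406147) stood apart, at 18.7, 17.4 and 19.6 TPM, a mean of 18.5 ± 1.09 TPM (SD, n = 3). Its highest replicate lay below the lowest value of every other gene of the set, which was 37.2 TPM, in RECQL4. The 4 GINS proteins are present once each in the complex, and the ratio of the highest to the lowest of their transcripts was 4.18, 4.58 and 3.76 in the 3 replicates, a mean of 4.17 ± 0.408 (SD, n = 3). Among GINS1, GINS2 and GINS4 alone it was 1.23 ± 0.0105 (SD, n = 3), but 1.52 ± 0.0658 with the longest and 2.03 ± 0.120 with the canonical transcript as gene length (SD, n = 3). CDC45 had 0.756 ± 0.0664 times the mean of the 4 GINS genes (SD, n = 3). These are bulk values, in which fewer cells with a transcript and fewer transcripts per cell cannot be told apart, nor can the phases of the cell cycle.

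The kinase had the highest level of the set on this scale, although GINS1 was above it with either of the other gene lengths tried, and its activator was lower. CDC7 (ENSG00000097046, chromosome 1, 91500851 to 91525764) had 105, 103 and 97.4 TPM, a mean of 102 ± 3.76 TPM (SD, n = 3). DBF4 (ENSG00000006634, chromosome 7, 87876216 to 87909553), whose protein CDC7 needs for its activity, had 59.5, 59.8 and 56.6 TPM, a mean of 58.6 ± 1.77 TPM (SD, n = 3). The lowest library of CDC7 lay above the highest of DBF4, and the ratio of both genes was 1.76, 1.72 and 1.72 in replicates 1, 2 and 3, a mean of 1.73 ± 0.0234 (SD, n = 3). The other known activator, DBF4B, was lower, at 18.2 ± 0.816 TPM (SD, n = 3), in the medium class. That class depended on gene length. With the canonical transcript DBF4B was at 26.1 ± 1.21 TPM (SD, n = 3), just under the boundary of 26.4 TPM. With the longest transcript it was in the high class. DBF4 has 3 annotated processed pseudogenes. DBF4P1 held 6, 7 and 2 reads and DBF4P2 and DBF4P3 held none, against 577 to 831 reads on DBF4 in a replicate.

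The transcripts of the scaffold proteins had the lowest spread between replicates, although TOPBP1 did not after a correction for GC content. Before that correction both spreads lay below what counting of reads alone gives, so this rank does not set the genes apart. TICRR (ENSG00000140534, chromosome 15, 89575469 to 89631056), also called treslin, had 61.4, 61.5 and 61.0 TPM, a mean of 61.3 ± 0.248 TPM (SD, n = 3). TOPBP1 (ENSG00000163781, chromosome 3, 133598175 to 133662380), which binds phosphorylated treslin and also activates the checkpoint kinase ATR, had 62.0, 62.8 and 63.4 TPM, a mean of 62.7 ± 0.723 TPM (SD, n = 3). TICRR was slightly below TOPBP1 in every replicate, at 0.977 ± 0.0143 times its level (SD, n = 3), but above it with the longest transcript as gene length, at 1.02 ± 0.0149 times (SD, n = 3) and in 2 of 3 replicates. MTBP, the partner of treslin, was at 9.91 ± 0.967 TPM (SD, n = 3), in the medium class and below every gene of the set. RECQL4 (ENSG00000160957, chromosome 8, 144511288 to 144517845) had 41.3, 37.2 and 53.9 TPM, a mean of 44.1 ± 8.69 TPM (SD, n = 3). Replicate 3 was well above both others, and without it the mean was 39.2 TPM.

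**Figure D1:**
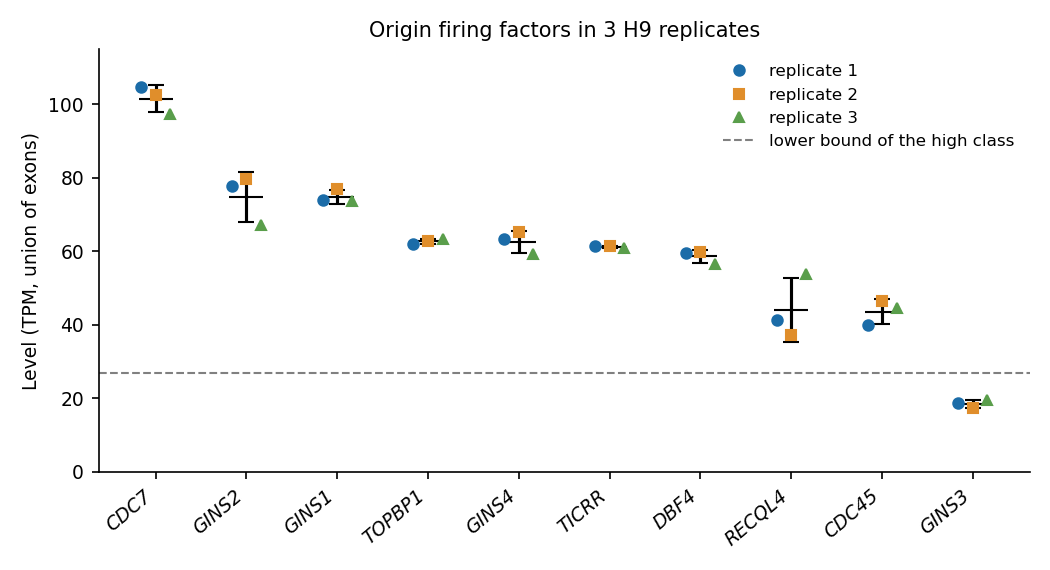
Level of each origin firing gene in TPM (vertical axis, union of exons as gene length) in the 3 H9 replicates, ordered by mean. Points are replicates, the horizontal tick is the mean and the bars are the SD (n = 3). CDC7 is highest at 102 TPM, GINS3 is the one gene below the dashed lower bound of the high class at 27.0 TPM, and RECQL4 has the widest spread.

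In the order of means on this scale, CDC7 was followed by GINS2, GINS1, TOPBP1, GINS4, TICRR, DBF4, RECQL4, CDC45 and GINS3. Of the 9 pairs of neighbors, 4 had overlapping ranges, namely GINS2 and GINS1, TOPBP1 and GINS4, GINS4 and TICRR, and RECQL4 and CDC45. The other 5 pairs did not overlap and kept their order in all 3 replicates, although TICRR and DBF4 differed by a mean of only 0.06 on the log2 scale. With 3 replicates, a paired exact test between genes could not go below p = 0.25, so none was made. The highest gene was 5.49 ± 0.471 times the lowest (SD, n = 3).

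The order depended on what is taken as the length of a gene. GINS1 has 25 annotated transcripts, with 8017 bases of exons in all but 3311 bases in its canonical transcript. With the canonical transcript as length, GINS1 was highest, at 109 ± 2.47 TPM (SD, n = 3), and CDC7 second, at 68.6 ± 2.28 TPM (SD, n = 3). GINS1 was then 1.99 ± 0.163 times GINS2 (SD, n = 3), where the union of exons gave 1.00 ± 0.0824 times (SD, n = 3). GINS3 remained the lowest under each of the 3 definitions, at 26.0 ± 1.62 TPM with the canonical transcript (SD, n = 3) and 22.3 ± 1.37 TPM with the longest (SD, n = 3). With the canonical transcript its range overlapped that of RECQL4, at 31.5 ± 6.34 TPM (SD, n = 3). The ratio of the highest to the lowest GINS gene was 4.22 ± 0.353 with the canonical and 4.52 ± 0.378 with the longest transcript (SD, n = 3), but the highest was then GINS1 in every replicate. CDC7 was above DBF4 under both, at 1.54 ± 0.0208 and 1.497 ± 0.0202 times its level (SD, n = 3). Which transcripts the cells used was not measured by counts per gene.

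**Figure D2:**
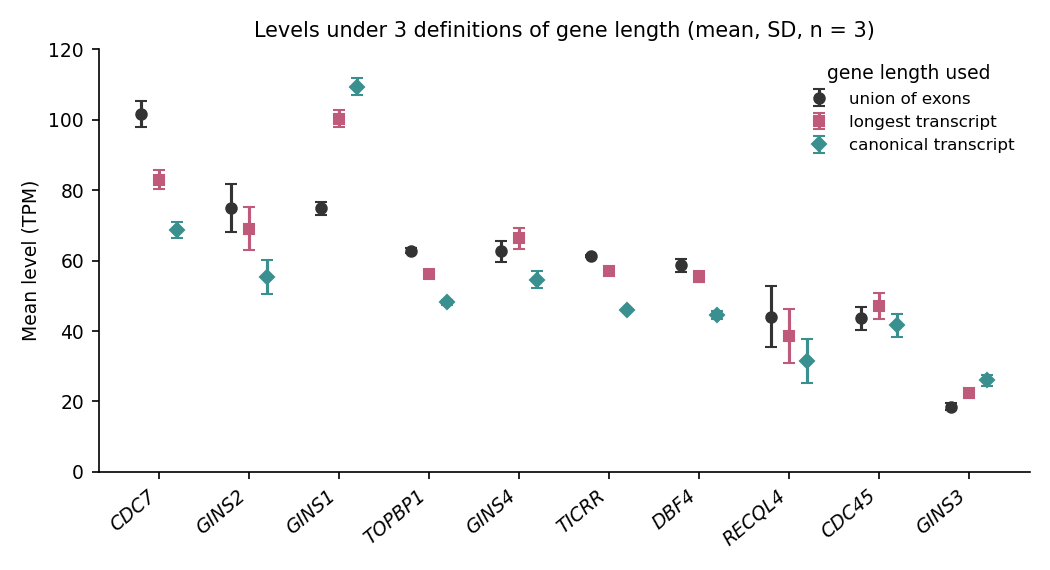
Mean level of each gene in TPM (vertical axis) with 3 definitions of gene length, in the order of the means for the union of exons. Symbols are means and bars the SD over 3 replicates. GINS1 moves from 74.8 to 109 TPM and CDC7 from 102 to 68.6 TPM between the union of exons and the canonical transcript, and GINS3 is lowest throughout.

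The study sorted genes into nonexpressed genes, below 0.01 TPM, and 3 quantiles of the others, which was applied here to the mean level of protein-coding genes. In the high class were 9 of the 10 genes, where 28.8% of the 19629 protein-coding genes were in it. GINS3 was in the medium class. The boundary lay at 27.0 TPM, between GINS3 at 18.5 TPM and CDC45 at 43.6 TPM. The count was 9 with each replicate taken alone. With the canonical transcript as length GINS3 was only just under the boundary, at 26.0 ± 1.62 TPM (SD, n = 3) against 26.4 TPM. With the longest transcript it was at 22.3 TPM, under a boundary of 28.8 TPM. The median of the 10 means was 62.0 TPM, against 60.7 TPM for all genes of the high class and 11.7 TPM for all expressed protein-coding genes. Among expressed protein-coding genes, CDC7 stood at percentile 90.6, GINS3 at percentile 58.4 and the other 8 genes between percentiles 77.2 and 86.6.

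The spread between replicates was compared with that from counting alone. The coefficient of variation of TPM had a median of 4.27% over the 10 genes, against 5.03% over the genes of the high class. It was at or below the value that Poisson counting gives for 5 genes, which were GINS1, GINS3, TICRR, TOPBP1 and DBF4. The share of all genes at or below that value was not computed, so this count does not set the genes apart. TICRR had 0.405%, where counting gives 2.75%, and TOPBP1 had 1.15%, where it gives 2.90%. After the correction for GC content TOPBP1 had 3.64% and TICRR 0.282%. A chi-square test of the counts over the 3 libraries, with Benjamini-Hochberg adjustment over 18451 genes with at least 20 reads, compares libraries and not conditions. It called 10.9% of all genes and 14.5% of the 6109 genes with as many reads as the set, and of the 10 genes it called RECQL4 alone (adjusted p = 2.87e-08). The next were GINS2 (adjusted p = 0.142) and CDC45 (adjusted p = 0.325). GINS2 had a coefficient of variation of 9.13%, where counting gives 4.04%, and was called with library sizes from TMM (adjusted p = 0.0486) or DESeq2 (adjusted p = 0.0432), which called 11.9% and 12.2% of all genes.

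**Figure D3:**
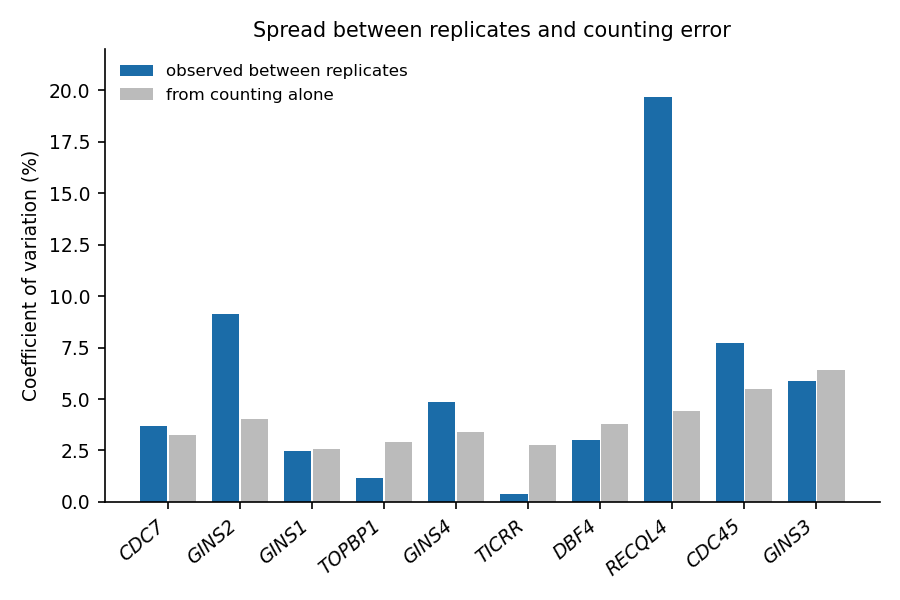
Coefficient of variation of TPM over the 3 replicates, in percent (vertical axis), for each gene beside the value expected from Poisson counting of its reads. RECQL4 reaches 19.7% where counting gives 4.43%, and TICRR is at 0.405%.

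RECQL4 also stood apart in base composition, with 65.1% GC in its exons, where the other 9 genes had between 38.8% and 53.7% and expressed protein-coding genes a median of 48.4%. In replicate 3 it exceeded the mean of replicates 1 and 2 by 0.46 on the log2 scale. Genes were split by GC content into 20 bins. The last bin began at 62.4% GC, and its 508 genes with at least 100 reads in every replicate had a median difference of 0.26 in the same direction. What part GC content has in the value of RECQL4 was not tested beyond these values. DBF4, with 38.8% GC, was lower in replicate 3 by a log2 difference of -0.08, and its bin had a median of -0.07. GINS2, with 51.1% GC, differed by -0.23, and its bin by -0.05. With the expected share of each library set within GC bins, RECQL4 was no longer called (adjusted p = 0.0919), where 6.38% of all genes were, and its values after a correction by bin were 43.1, 40.2 and 48.2 TPM, with replicate 3 still highest. Without replicate 3 it was not called either (adjusted p = 0.600), and 227 of 17089 genes (1.33%) were. In its GC bin, the test called 28.3% of 1183 genes by library totals and 7.19% within bins.

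**Figure D4:**
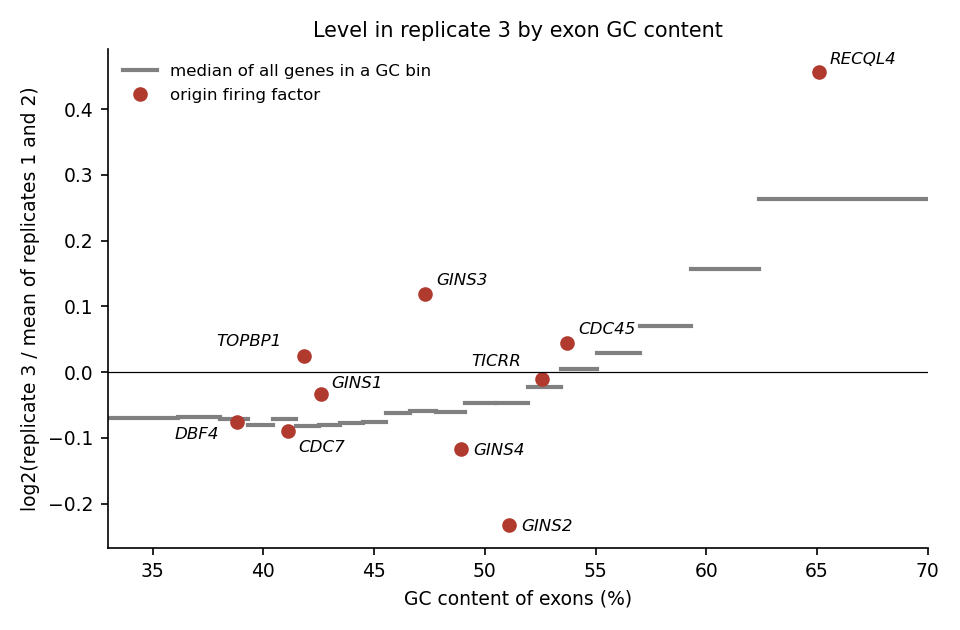
Log2 ratio of the level in replicate 3 to the mean of replicates 1 and 2 (vertical axis) against the GC content of exons in percent (horizontal axis). Red points are the origin firing genes and grey lines are medians of genes with at least 100 reads in each of 20 GC bins, the outermost of which are drawn cut at the edges of the plot. The medians lie between -0.08 and 0.26, with the highest in the last bin, and RECQL4 is the point at the upper right at 0.46.

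Genes on the other strand share exonic bases with all of the set but CDC7, and the use of strand in counting is not given in the sources used here. The share of exon length was 23.4% in GINS4, 10.9% in GINS3 and 7.00% in TICRR, and between 0.217% and 4.38% in the 6 others. No gene of the set shared exonic bases with a gene on its own strand. Within GINS4 lies the lncRNA gene ENSG00000253174, which had 263, 326 and 214 reads and shares 96.3% of its exonic bases with GINS4. That is 675 reads per kb over the 3 replicates, against 494 on GINS4. The lncRNA gene ENSG00000276131, which shares 85.2% of its exonic bases with GINS3, had 177 reads per kb, against 145 on GINS3. The lncRNA gene ENSG00000265393, which shares 58.6% of its exonic bases with RECQL4, had 645 reads per kb, against 340 on RECQL4. Whether such reads belong to the one gene or the other cannot be told apart without strand, which limits the levels of GINS3, GINS4 and RECQL4.

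Of the 10 genes, 3 start next to a protein-coding gene that runs the other way, where 9.45% of protein-coding genes do within 1000 bases. CDC45 starts 727 bases from UFD1, which had 25.7 ± 1.37 TPM (SD, n = 3). RECQL4 starts 159 bases from LRRC14, which had 20.3 ± 1.77 TPM (SD, n = 3), and DBF4 133 bases from SLC25A40, which had 15.3 ± 1.77 TPM (SD, n = 3). Each partner was below its origin firing gene in every replicate.

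Other replication genes were set beside the 10, as 8 lists with 48 genes. In the high class were 40 of these genes, and their median was 69.7 TPM. With the longest transcript as gene length 40 were in it, and with the canonical transcript 38, with a median of 59.6 TPM. The list values that follow are for the union of exons, unless another length is named. The 6 genes of the MCM ring, onto which CDC45 and GINS are loaded, were all above the highest origin firing gene, from MCM5 at 189.6 ± 7.25 TPM to MCM3 at 539 ± 20.8 TPM (SD, n = 3). With the canonical transcript as length they were also above it, from MCM6 at 194 TPM to MCM7 at 544 TPM. Of the 9 other factors of the preinitiation step, 6 were in the high class. MCM10, which helps the helicase to start, was at 74.9 ± 3.44 TPM (SD, n = 3) and DONSON, which helps GINS to bind, at 63.8 ± 4.11 TPM (SD, n = 3). Their list ran from POLE4 at 8.98 TPM to POLE3 at 98.7 TPM, both small subunits of polymerase ε. All 9 genes of licensing or its control were in the high class, from ORC5 at 29.4 TPM to ORC1 at 140.1 TPM. With the canonical transcript 8 were, and ORC4 was lowest at 26.2 TPM, just under the boundary of 26.4 TPM. The highest was then GMNN, which belongs to the control of licensing, at 157 TPM. All 4 genes of RIF1 and the catalytic subunits of protein phosphatase 1, which oppose CDC7, were in the high class with each gene length, from RIF1 at 93.2 TPM to PPP1CC at 259.6 TPM with the union of exons and from 69.7 to 424 TPM with the canonical transcript. Of 6 cyclin and kinase genes 5 were, from CCNE2 at 13.0 TPM, in the medium class, to CCNB1 at 490.5 TPM.

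The list of 4 other RecQ helicases ran from RECQL5 at 11.6 ± 0.516 TPM to RECQL at 68.8 ± 2.36 TPM (SD, n = 3), with 3 in the high class, and RECQL4 lay within that range. With the canonical transcript 2 were in the high class, WRN no longer, and BLM was highest at 43.8 TPM. The 3 fork partners ran from TIPIN at 40.8 TPM to TIMELESS at 106 TPM, all in the high class, and with the canonical transcript from CLSPN at 28.5 TPM to TIMELESS at 72.5 TPM. Of the 7 genes of checkpoint signaling listed beside TOPBP1, 4 were in the high class. RHNO1 was highest, at 74.1 ± 7.55 TPM (SD, n = 3), and ATRIP lowest, at 0.358 ± 0.143 TPM (SD, n = 3). The value of ATRIP rests on only 3, 6 and 6 reads, and 26.7% of its exon length is shared with genes on its own strand. The genes nearest in level were MCM10 to GINS1 and GINS2, CDK2 to GINS4 and TOPBP1, ORC3 to TICRR and DBF4, CLSPN to CDC45 and RECQL4, CDT1 to CDC7 and ETAA1 to GINS3, by the mean log2 TPM over the 3 replicates. The largest of these differences was 0.08, between ORC3 and DBF4. These pairs depended on gene length. With the canonical transcript 1 of the 10 genes, GINS2, kept its nearest gene, and with the longest transcript none did. GINS1 was at 109 TPM and MCM10 at 54.2 TPM with the canonical transcript. This is a likeness in level under 1 condition and not in a pattern across conditions.

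**Figure D5:**
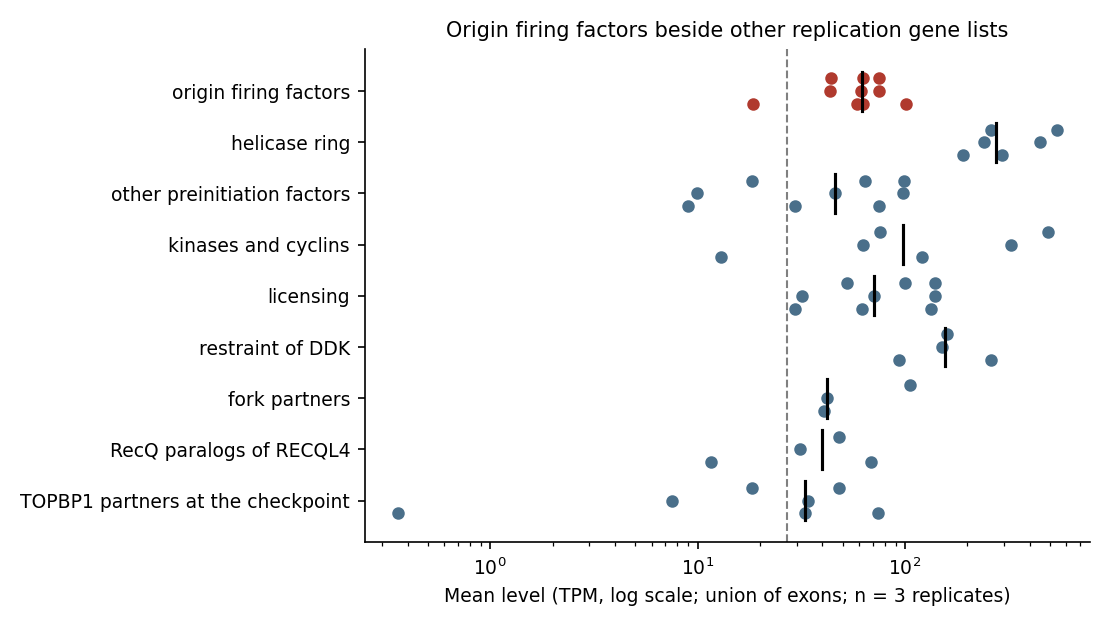
Mean level of the 10 origin firing genes (red) and of the genes of 8 other replication lists (blue), in TPM on a log axis, each point 1 gene (n = 3 replicates) and each vertical bar the median of its list. The dashed line is the lower bound of the high class at 27.0 TPM. The MCM ring lies to the right of all origin firing genes, whose median is 62.0 TPM.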

How the data were processed

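Total RNA of 3 H9 replicates was analysed. Per the labels, the authors trimmed reads with Trim Galore 0.4.4 and aligned them with TopHat2 2.1.1 to GRCh38, and they deposited unnormalized read counts per Ensembl gene. For counting, the tool, annotation and strand setting are not given in the sources used. The study's own TPM values, from Cufflinks 2.2.1, were not used.

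Identifiers were joined to GENCODE release 44 on the same build, which matched 56948 of 58051. TPM was computed over matched genes with the union of exons as length. Counts over the libraries were compared by a chi-square test against library totals (at least 20 reads, Benjamini-Hochberg, 0.05). The test was tried on simulated Poisson counts. These held no GC difference between libraries, so the trial does not cover calls that arise with such a difference. Genes of high GC content were compared in 20 bins of exon GC with equal numbers of genes. The alternatives were other gene lengths, CPM, TMM (edgeR 4.0.16) and DESeq2 1.42.0 factors, mitochondrial genes left out, GC correction, thinning, the median, other filters and thresholds, and leaving out each replicate. Other gene lengths for the lists were added after seeing the data. R 4.3.3, Python 3.11.15, pandas 2.3.3 and scipy 1.17.1 were used. The genes, lists and tests were chosen with earlier results of these data known. Named were the 10 genes, the highest and lowest gene of each list, DBF4B, MTBP, DONSON and MCM10, list genes nearest in level, and overlapping genes and pseudogenes. Promoter motifs, divergent neighbors and MCM6 were named after their values were seen. Counting error is a lower limit, as PCR copies are not independent molecules.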

Additional observations from a re-analysis of the deposited data

How the results depend on the processing

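The number of genes in the high class lay between 8, with CPM, and 10, with all genes classified. The median level of 62.0 TPM was 56.7 TPM with the longest and 47.0 TPM with the canonical transcript as length, 77.2 in CPM, which is another unit, 64.5 TPM without mitochondrial genes, as the total is smaller, and 58.5 TPM with the counts thinned to 10%. The ratio of the highest to the lowest gene, 5.49, was 4.52 with the longest transcript, 4.22 with the canonical one and 6.35 in CPM, and that of the GINS genes, 4.17, was 6.35 in CPM. The ratio of CDC7 to DBF4, 1.73, was 1.497, 1.54 and 1.36 in the same order, and 1.93 ± 0.350 in the thinned counts (SD, n = 3). Values per gene moved by more than their SD in 9 of 10 genes with the canonical transcript (2 higher and 7 lower). None moved so far with TMM factors, DESeq2 factors or GC correction. These settings rescale the libraries against each other, which nearly keeps a mean over replicates by calculation. The chi-square test called 1 gene, but 2 with TMM factors (11.9% of all genes tested) and 2 with DESeq2 factors (12.2%), where GINS2 joined RECQL4. It called 0 within GC bins (6.38% of all genes), with 1 gene at an unadjusted p under 0.05, and 0 in the thinned counts (0.543% of all genes), with 0 at an unadjusted p under 0.05. With 1 replicate left out it called 0 to 1, and 0 only without replicate 3 (1.33% of all genes), with 1 gene at an unadjusted p under 0.05. TPM divides by gene length, so the values change with the length by calculation, and which length fits these cells was not tested. Why GINS2 was called with the TMM and DESeq2 factors was not tested. No paired analysis was possible because there is only 1 condition. Depth limits GINS3 and CDC45 most, with 739 and 1021 reads in all.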

Other observations

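Among the 48 other replication genes, the counts of 7, or 14.6% of them, varied between libraries by the same chi-square test. Of all genes tested it called 10.9%, and of genes with 739 to 4720 reads 14.5%. That range is the one of the origin firing genes, and the 48 genes are not matched to it. MCM7 had at least 4893 reads in each library, whereas ATRIP had 3, 6 and 6 reads and was not tested. The 7 called genes were MCM5, MCM6, WDHD1, POLE, CCNB1, CDT1 and CLSPN, with exon GC contents from 38.6% to 64.3%. They were named after their values were seen. CDT1, the licensing factor that loads the MCM ring and is destroyed in S phase, had 64.3% GC in its exons and exceeded its other replicates by 0.42 on the log2 scale in replicate 3, close to the 0.46 of RECQL4. Within GC bins 3 of the 48 were called, MCM5, WDHD1 and CLSPN, where 6.38% of all genes were, and CDT1 was not (adjusted p = 0.121). CLSPN, the fork protein that links the helicase to checkpoint signaling, was lower in replicate 3 by a log2 difference of -0.32, and WDHD1, which links the helicase to polymerase α, was higher by 0.18.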
